A study of Mus musculus with 16 samples.

Results

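α-Ketoglutarate (αKG) was compared with its control in mouse macrophages late in their conversion to osteoclasts, at 48 and 72 h of RANKL. The comparison used 4 of the series' 16 arrays, chosen by their labels. The αKG Late group holds bone marrow-derived macrophages given 1 mM dimethyl αKG, M-CSF and RANKL, with 1 array at 48 h and 1 at 72 h. The DW Late group holds the same kind of cells given DW, M-CSF and RANKL, with 1 array at each of the same times. DW is the control treatment as labelled, and its letters are not spelt out there. All cells came from the tibias and femurs of male C57BL/6 mice aged 5 weeks. Matched pairs at 3, 6, 12 and 24 h, with 1 array per arm and time, served together with the late pairs to estimate the spread. Both DW arrays at 0 h, from cells given DW and M-CSF without RANKL, are used as levels only, and the αKG arrays at 0.5 and 1 h, which have no DW partner, are not used here outside of alternatives. The labels do not say which arrays came from different animals or cultures, and the p-values below therefore speak only to the variation seen among arrays, part of which may be technical. That variation is how far the αKG minus DW difference changed between 3 and 6 h, 12 and 24 h, and 48 and 72 h. Change with time and scatter between arrays cannot be told apart in it.

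Osteoclasts are giant cells with several nuclei that resorb bone. They form when macrophage precursors receive M-CSF, which keeps them alive, and RANKL, which binds the receptor RANK and turns on NF-κB, AP-1 and then NFATc1. The precursors fuse, attach to bone through integrin αvβ3 and an actin ring, and secrete protons and proteases into the sealed space. Dimethyl αKG is an ester of α-ketoglutarate that crosses cell membranes. α-Ketoglutarate is an intermediate of the tricarboxylic acid (TCA) cycle and a substrate of dioxygenases that act on proteins, RNA and DNA.

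The sequences upstream of 4 genes are shown because these genes stand for the groups described below. Oscar encodes a collagen-binding co-stimulatory receptor, Ctsk the collagen-degrading protease cathepsin K, Cd36 a macrophage scavenger receptor, and Gclm the modifier subunit of the enzyme that starts glutathione synthesis. Oscar and Ctsk were lower late with αKG, and Cd36 and Gclm were higher. Each window runs 5′ to 3′ on the gene's strand, from 250 bases before to 50 bases after the transcription start, as RefSeq gives it on GRCm38.p6. Oscar lies at chr7:3616108-3616407 on the minus strand, Ctsk at chr3:95498960-95499259 on the plus strand, Cd36 at chr5:17835847-17836146 on the minus strand and Gclm at chr3:122245307-122245606 on the plus strand. Capitals mark matches, on either strand, to 5 motifs: NFAT (TGGAAA), PU.1 (GAGGAAG), AP-1 (TGANTCA), the MITF E-box (CACGTG) and the antioxidant response element (TGACNNNGC). No matches overlap in these windows.
Oscar: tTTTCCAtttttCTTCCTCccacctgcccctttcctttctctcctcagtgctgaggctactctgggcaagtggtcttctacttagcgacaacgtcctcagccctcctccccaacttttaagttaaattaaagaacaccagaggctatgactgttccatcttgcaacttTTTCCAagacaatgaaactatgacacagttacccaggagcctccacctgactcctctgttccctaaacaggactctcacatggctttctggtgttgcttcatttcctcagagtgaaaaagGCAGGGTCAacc
Ctsk: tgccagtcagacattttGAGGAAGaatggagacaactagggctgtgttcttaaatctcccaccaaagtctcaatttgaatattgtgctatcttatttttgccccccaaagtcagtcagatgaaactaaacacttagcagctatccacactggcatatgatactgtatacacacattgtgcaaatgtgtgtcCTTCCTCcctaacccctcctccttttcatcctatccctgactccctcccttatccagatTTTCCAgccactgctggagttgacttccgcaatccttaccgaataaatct
Cd36: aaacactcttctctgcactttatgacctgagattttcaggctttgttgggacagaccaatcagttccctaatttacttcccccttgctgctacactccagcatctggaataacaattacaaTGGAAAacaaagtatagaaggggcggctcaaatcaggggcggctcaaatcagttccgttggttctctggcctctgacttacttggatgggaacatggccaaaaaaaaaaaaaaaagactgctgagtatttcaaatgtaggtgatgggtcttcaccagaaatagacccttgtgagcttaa
Gclm: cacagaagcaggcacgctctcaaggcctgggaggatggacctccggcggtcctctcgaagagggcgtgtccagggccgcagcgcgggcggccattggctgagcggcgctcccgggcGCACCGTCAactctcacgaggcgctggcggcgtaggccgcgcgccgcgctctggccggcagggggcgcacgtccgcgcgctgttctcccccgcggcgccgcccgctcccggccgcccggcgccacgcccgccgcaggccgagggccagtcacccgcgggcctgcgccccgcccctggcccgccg
The Oscar window held NFAT matches at positions -249 to -244 and -82 to -77, a PU.1 match at -238 to -232 and an antioxidant element match at 39 to 47, counted from the start site. The Ctsk window held an NFAT match at 1 to 6 and PU.1 matches at -233 to -227 and -59 to -53. The Cd36 window held 1 NFAT match (-129 to -124) and the Gclm window 1 antioxidant element match (-134 to -126). Such matches are common: of all 32851 windows 21.4% held the NFAT letters, 13.6% PU.1, 7.81% AP-1, 7.15% the E-box and 12.4% the antioxidant element. Windows were found for 240 of the 338 genes that fell late with αKG and for 260 of the 325 that rose. The next shares count genes with at least 1 matching window, not windows. The NFAT letters were found for 19.6% of genes that fell, 26.5% of genes that rose and 20.2% of the 12037 tested genes with a window. PU.1 letters were in 18.3% and 24.2%, against 15.8%, and AP-1 letters in 6.25% and 13.8%, against 6.85%. E-box letters were in 10.4% and 11.9%, against 10.7%, and antioxidant element letters in 17.9% and 17.7%, against 16.3%. These shares describe letters in the windows and were not tested.

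The arms stood furthest apart at 72 h, and at 48 h only a little further apart than at 6 h, with 1 pair per time. The SD of the αKG minus DW difference over 15526 genes was 0.282 log2 at 48 h and 0.412 at 72 h, against 0.216 (3 h), 0.263 (6 h), 0.252 (12 h) and 0.254 (24 h). The DW pair at 0 h, which had the same treatment, differed with an SD of 0.196. At 48 h 68 genes were at least 2-fold higher and 68 at least 2-fold lower with αKG, and at 72 h the counts were 277 and 238. The largest counts at an earlier time were 47 and 46, at 6 h. The mean correlation with the other 15 arrays was 0.969 for the 48 h αKG array and 0.963 for the 72 h αKG array, against 0.960 and 0.928 for their DW partners. The last value was the lowest of the series, in which other arrays had up to 0.975. In bulk arrays, fewer cells of a type and less RNA per cell cannot be told apart, and this holds for every result below. The macrophage genes Cd68 and Adgre1 were bright in all 4 late arrays. Cd68, a lysosomal glycoprotein, had 12.42 and 12.56 with αKG and 12.45 and 12.57 with DW. Adgre1, a surface receptor, had 10.57 and 11.29 with αKG and 10.29 and 11.26 with DW. They do not stand for all macrophage genes: over 21 tested members of their list the median difference was 0.34 at 48 h and 0.28 at 72 h. Axl was dimmer, with 7.25 and 6.86 with αKG and 6.84 and 6.53 with DW.

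The late αKG effect is the mean of the αKG minus DW differences at 48 and 72 h, on the log2 scale, with its standard error. Over all genes 663 of 15526 (4.27%) passed an adjusted p of 0.05 in limma, 325 higher (2.09%) and 338 lower (2.18%), and 2979 had an unadjusted p under that threshold. All 663 had the same sign at both times. Genes in the lowest 30% by mean level over all arrays, at 4.34 log2 or less, were not tested. Of the 338 that fell, 5 (Oscar, Calcr, Cd200, Akap6 and Steap4) were above this limit only through the late DW arrays, in which they were high, and averaged 4.04 to 4.27 over the other 14 arrays. All 5 also passed when no gene was left out, with adjusted p-values in limma from 9.25e-05 (Oscar) to 0.0121 (Calcr). None of the 325 that rose passed the limit only through the late αKG arrays. The differences were larger at 72 h than at 48 h for 274 of the 338 genes that fell and for 187 of the 325 that rose. At least 2-fold changes at both times were found for 52 genes that fell and 19 that rose. Across genes the differences at 48 and 72 h, which share no array, correlated at r = 0.38 (15526 genes, which are not independent replicates). Centring each array on its median shifted the median gene to -0.04 and gave 253 higher and 422 lower, so 37.5% of calls were higher, against 49.0% before. Dropping the 72 h pair left 326 calls, and dropping the 48 h pair gave 1882. Dropping 1 of the 4 earlier pairs left between 275 and 365. With a late pair dropped, the late effect is 1 αKG array minus 1 DW array. Counts from such fits, here and below, have no late replicate, and their spread comes from the earlier pairs alone. With arrays not paired by time 7 genes passed, 6 higher and 1 lower, and 1222 had an unadjusted p under 0.05. Of those 7, Cd36 and Rnf128 are described below, and Abcc3, Alox5ap, Fam102a, Padi4 and A530064D06Rik are named here after their values were seen.

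**Figure D1:**
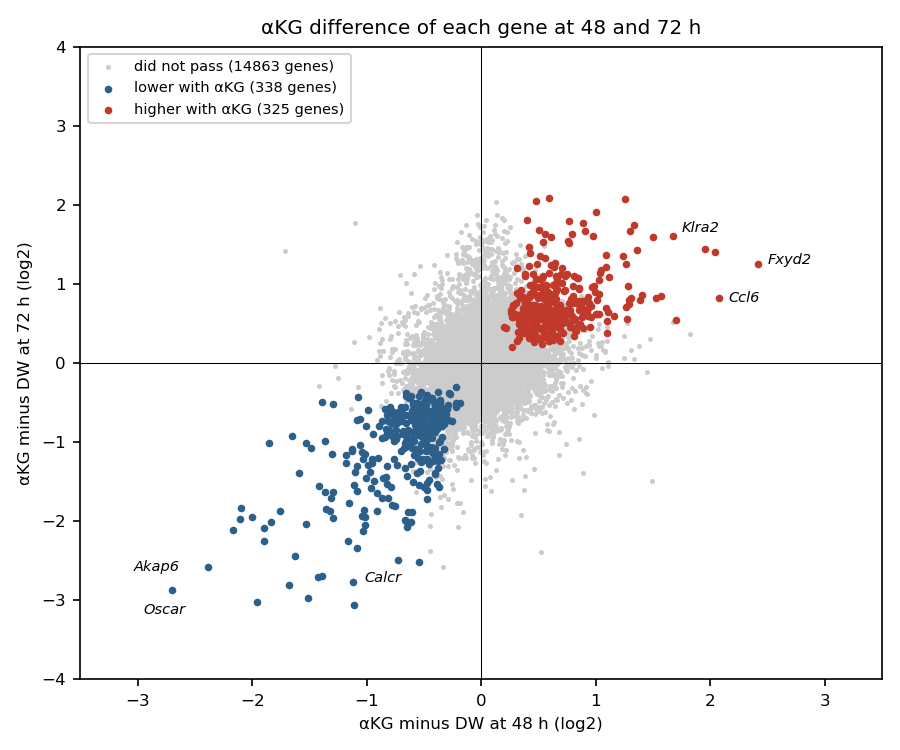
Each point is 1 of 15526 genes, with its αKG minus DW difference at 48 h across and at 72 h up (log2). The 338 genes that fell (blue) lie in the lower left and the 325 that rose (red) in the upper right, and 14863 genes (grey) did not pass. The grey points reach farther up than across near a 48 h difference of 0.

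Genes of the mature osteoclast were among the largest decreases. Over 9 lists of osteoclast genes and their regulators, 107 distinct members were tested, of which 30 fell and 6 rose, with a median of -0.19 log2 against 0.01 for all genes. The shares of all genes were 2.18% lower and 2.09% higher, as above. The decreases were unevenly spread over these lists: most genes of acid secretion fell, while most genes of RANK signalling did not pass in either direction.

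Oscar, whose receptor pairs with the adaptor FcRγ to give osteoclast precursors a co-stimulatory signal, had the lowest late effect of all genes. Its log2 level was 5.01 at 48 h and 8.0 at 72 h with αKG, against 7.71 and 10.88 with DW. At 24 h it stood at 3.72 with αKG and 3.88 with DW, so its increase came late in both arms. The groups overlap, because the αKG level at 72 h was above the DW level at 48 h, although αKG was lower at each time. Oscar fell by 2.79 ± 0.14 log2, which is 6.92-fold (adjusted p = 0.000106, limma). Siglec15, a sialic acid-binding receptor that signals through the adaptor DAP12, had 6.18 and 6.71 with αKG and 6.85 and 8.69 with DW. It fell by 1.32 ± 0.25 log2 (adjusted p = 0.0216, limma), a call lost when the 72 h pair or any 1 of the 4 earlier pairs was dropped. Trem2, another receptor that uses DAP12, went the other way: it had 10.46 and 10.68 with αKG against 9.87 and 9.93 with DW, with no overlap, and rose by 0.67 ± 0.08 (adjusted p = 0.00400, limma). The adaptors and kinases behind these receptors had late effects near 0 and did not pass: Tyrobp (DAP12) 0.02, Fcer1g (FcRγ) 0.17, Syk -0.24, Btk 0.02 and Plcg2 0.28. Of 11 members of this list 2 fell and 1 rose, with a median of 0.02.

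Fusion genes were lower by more than 4-fold for the pair of transmembrane proteins that fusion requires. Dcstamp had 7.56 and 8.47 with αKG, against 9.72 and 10.58 with DW. Both αKG arrays were below both DW arrays, and Dcstamp fell by 2.14 ± 0.14 log2, or 4.42-fold (adjusted p = 0.000474, limma). Ocstamp had 8.15 and 8.80 with αKG, against 10.04 and 11.05 with DW, and fell by 2.07 ± 0.16, or 4.20-fold (adjusted p = 0.000762, limma). Atp6v0d2, a proton pump subunit also needed for fusion, fell by 1.49 ± 0.30 (adjusted p = 0.0277, limma). The tetraspanin Cd9 was higher with αKG, at 9.99 and 9.79 against 9.39 and 9.38 with DW, and rose by 0.50 ± 0.11 (adjusted p = 0.0345, limma). The Cd9 call was lost when any earlier pair (3, 6, 12 or 24 h) was dropped. It was also lost with arrays centred on their medians, without the intensity trend, or with the mean of a gene's features. Cd44 (-0.11), Cd47 (0.14), Cd81 (0.27), Sirpa (-0.06) and Sh3pxd2a, a podosome scaffold (-0.64), did not pass. In all 4 of 10 fell, among them Siglec15, which is also counted with the co-stimulatory receptors, and 1 rose (median -0.37). Only Dcstamp and Ocstamp still fell when the 72 h, the 3 h or the 6 h pair was dropped.

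Of the 10 acid secretion genes 7 fell and 0 rose. All 10 were below 0 at both times, against 4465 of all 15526 genes, and the median was -0.89. Car2, carbonic anhydrase II, which makes the protons, had 6.94 and 8.70 with αKG, against 9.05 and 10.68 with DW. The groups do not overlap, and Car2 fell by 2.05 ± 0.14 log2, or 4.13-fold (adjusted p = 0.000474, limma). Acp5, tartrate-resistant acid phosphatase, had 9.75 and 10.87 with αKG and 11.28 and 11.89 with DW, and fell by 1.27 ± 0.14 (adjusted p = 0.00346, limma). Slc4a2, the chloride and bicarbonate exchanger that balances proton loss, had 7.49 and 8.14 with αKG and 8.46 and 9.52 with DW. It fell by 1.17 ± 0.13 (adjusted p = 0.00300, limma), again with no overlap. Snx10, a sorting nexin of the ruffled border (-1.04 ± 0.16), and Clcn7, the chloride transport partner of the pump (-0.75 ± 0.10), fell as well. So did Tcirg1, the osteoclast form of the pump's a subunit (-0.47 ± 0.09). Ostm1 (-0.39), Plekhm1 (-0.19) and Slc9a7 (-0.17) did not pass. For 7 of the 10 both αKG arrays were below both DW arrays, against 14.9% of all genes.

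The V-ATPase, the proton pump itself, was lower across several subunits. Of 16 tested subunits and accessory proteins 9 fell and 0 rose, with a median of -0.55. Among the 9 are Tcirg1 and Atp6v0d2, which are also counted with acid secretion, and Atp6v0d2 with fusion too. In the peripheral V1 sector Atp6v1d had 8.97 and 9.66 with αKG, against 9.71 and 10.63 with DW, and fell by 0.86 ± 0.09 log2 (adjusted p = 0.00300, limma). The αKG level at 72 h was just below the DW level at 48 h. Atp6v1b2 had 11.05 and 11.36 with αKG and 11.61 and 12.10 with DW, and fell by 0.65 ± 0.08 (adjusted p = 0.00366, limma). Atp6v1c1 (-0.61 ± 0.09), Atp6v1a, the catalytic subunit (-0.52 ± 0.07), Atp6v0e of the membrane sector (-0.59 ± 0.10) and the accessory Atp6ap2 (-0.44 ± 0.07) fell too. Atp6v0a1, which encodes another form of the a subunit, stood at 0.23, Atp6v0d1, the widely expressed relative of Atp6v0d2, at -0.02, and neither passed. The number that fell changed to 5 when the 72 h pair was dropped, to 11 when the 48 h pair was, and to 4 when the 3 h or the 6 h pair was. Without the intensity trend in the fit it was 3.

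**Figure D2:**
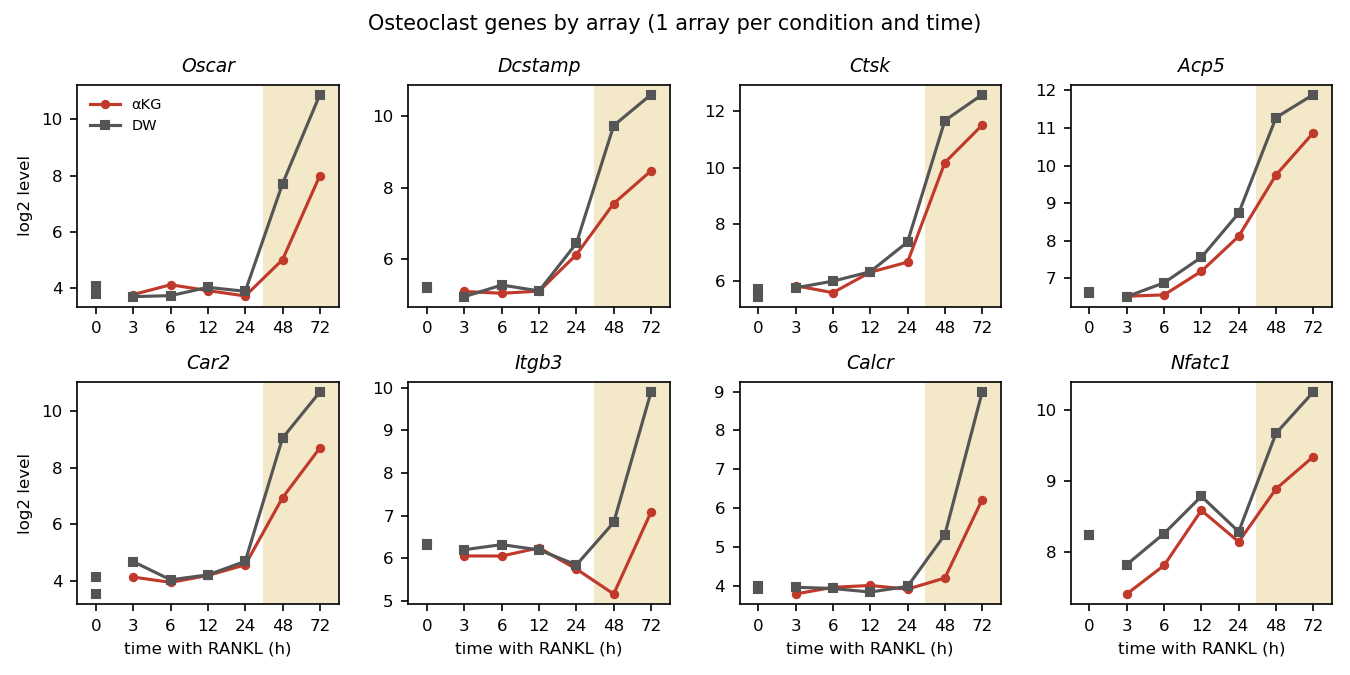
Log2 level of 8 osteoclast genes against time with RANKL (h, evenly spaced steps), with αKG arrays in red and DW arrays in grey, 1 array per point and no error bars; grey squares at 0 h are the DW arrays without RANKL. In the shaded late times every αKG point lies below the DW point of the same time, while at 3 to 24 h the lines run close together for Oscar, Dcstamp, Car2, Itgb3 and Calcr.

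Matrix proteases moved in both directions. Ctsk, cathepsin K, had 10.18 and 11.50 with αKG, against 11.67 and 12.58 with DW, with no overlap, and fell by 1.28 ± 0.18 log2 (adjusted p = 0.00789, limma). Mmp9, a gelatinase, had 10.59 and 11.74 with αKG and 11.95 and 12.73 with DW, and fell by 1.18 ± 0.13 (adjusted p = 0.00312, limma). Mmp14, a membrane-bound metalloproteinase, had 7.73 and 9.18 with αKG and 9.73 and 11.13 with DW, and fell by 1.97 ± 0.16 (adjusted p = 0.000762, limma). Ctsl, cathepsin L of lysosomes, was higher instead, at 11.78 and 11.22 with αKG and 11.14 and 10.59 with DW, and rose by 0.63 ± 0.10 (adjusted p = 0.00932, limma). Adam8, a membrane metalloproteinase of myeloid cells, had 11.42 and 10.73 with αKG and 10.88 and 9.20 with DW, and rose by 1.04 ± 0.18 (adjusted p = 0.0158, limma). Ctsb (0.11) and Adam12 (0.17) did not pass, so 3 of 7 fell and 2 rose. The Adam8 call was lost when any 1 of the 4 earlier pairs was dropped. The αKG level was below the DW level of the same time for each of Ctsk, Mmp9 and Mmp14, and above it for Ctsl and Adam8.

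Attachment and actin genes fell in part, Itgb3 by the most on the log2 scale. Itgb3, the β3 subunit, had 5.16 and 7.08 with αKG, against 6.84 and 9.90 with DW, and fell by 2.25 ± 0.22 log2, or 4.74-fold (adjusted p = 0.00235, limma). Its αKG level at 48 h was below its level at 24 h in either arm, as the plot of osteoclast genes shows. Its partner Itgav, the αv subunit, had 9.95 and 9.34 with αKG and 10.34 and 10.79 with DW, a late effect of -0.92 ± 0.23 that did not pass (adjusted p = 0.0633, limma). Src, the kinase that organises the sealing zone, had 7.46 and 8.14 with αKG and 8.88 and 9.69 with DW, and fell by 1.48 ± 0.11 (adjusted p = 0.000762, limma). Scin, an actin-severing protein, had 8.16 and 8.76 with αKG and 9.48 and 10.46 with DW, and fell by 1.51 ± 0.18 (adjusted p = 0.00434, limma). Dock5, an activator of Rac (-0.73), Cttn, cortactin (-0.69), and the adhesion adaptor Pxn, paxillin (-0.62), fell as well. Talin, Tln1 (-0.19), Gsn, gelsolin (0.04), and Ptk2b, Pyk2 (0.07), did not pass. In all 6 of 15 fell and 0 rose (median -0.19), and 3 fell when the 72 h, the 3 h or the 6 h pair was dropped.

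Receptors and secreted factors of osteoclasts were lower in part. Calcr, the calcitonin receptor, had 4.20 and 6.22 with αKG, against 5.31 and 8.99 with DW, and fell by 1.95 ± 0.31 log2 (adjusted p = 0.0112, limma). The αKG minus DW difference was -1.12 at 48 h and -2.77 at 72 h, and the αKG level at 72 h was above the DW level at 48 h. Ccr1, a chemokine receptor, had 6.40 and 6.94 with αKG and 8.03 and 9.38 with DW, with no overlap, and fell by 2.03 ± 0.18 (adjusted p = 0.00127, limma). Cd200, a surface ligand of the inhibitory receptor CD200R, had 5.52 and 5.96 with αKG and 7.03 and 8.94 with DW, and fell by 2.25 ± 0.31 (adjusted p = 0.00675, limma). Some members stood apart at 72 h and close together at 48 h, and did not pass. Pdgfb, a growth factor secreted by preosteoclasts, had 8.0 and 7.62 with αKG and 7.91 and 9.25 with DW. Cthrc1, a secreted coupling factor, had 5.58 and 5.40 with αKG and 5.71 and 6.60 with DW. Csf1r, the M-CSF receptor, stood at -0.07 in the mean of both times and did not pass. That mean hides a difference at 72 h, where Csf1r was lower with αKG than with DW. In all 3 of 13 tested members fell and 0 rose (median -0.29), and 7 fell when the 48 h pair was dropped. Tnfsf11, RANKL itself, was below the filter on dim genes and was not tested.

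Transcription factors of the osteoclast programme fell in part. Nfatc1, its master regulator, had 8.89 and 9.35 with αKG, against 9.68 and 10.26 with DW, and fell by 0.85 ± 0.09 log2 (adjusted p = 0.00321, limma). Both αKG arrays were below both DW arrays. Fosl2, an AP-1 member, had 8.75 and 8.97 with αKG and 9.87 and 10.51 with DW, and fell by 1.33 ± 0.16 (adjusted p = 0.00473, limma). Prdm1, which silences repressors of osteoclast genes, had 7.11 and 7.81 with αKG and 8.20 and 9.11 with DW, and fell by 1.20 ± 0.15 (adjusted p = 0.00526, limma). Ppargc1b, a coactivator of mitochondrial genes, had 5.71 and 6.38 with αKG and 6.72 and 7.83 with DW, and fell by 1.23 ± 0.14 (adjusted p = 0.00366, limma). Jdp2, another AP-1 family member, fell by 1.08 ± 0.14. Fos (0.12), Mitf (-0.24), Spi1, which encodes PU.1 (-0.26), Tfe3 (0.09) and Myc (0.23) did not pass. Of 17 tested 5 fell and 0 rose, with a median of -0.28.

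Upstream of these factors little passed the test. Of 12 RANK and NF-κB genes 1 fell and 0 rose (median -0.11). That gene was Traf6, the adaptor that couples RANK to NF-κB, with 6.79 and 7.03 with αKG against 7.16 and 8.03 with DW and a late effect of -0.68 ± 0.16 (adjusted p = 0.0439, limma), a call lost when the 72 h or any earlier pair was left out. Tnfrsf11a, RANK, had 9.40 and 8.63 with αKG and 9.47 and 9.21 with DW, and did not pass (-0.33). Rela stood at -0.04, Relb at -0.25 and Nfkb2 at -0.17. Chuk, Nfkb1 and Traf3 were not used here. Among 14 tested repressors of osteoclast formation 2 rose and 1 fell (median -0.02). Rbpj, a Notch pathway factor, had 9.87 and 8.78 with αKG and 9.15 and 8.28 with DW, and rose by 0.61 ± 0.10 (adjusted p = 0.0142, limma). Lilrb4a, an inhibitory receptor of myeloid cells, had 12.55 and 12.48 with αKG and 12.20 and 11.65 with DW, and rose by 0.59 ± 0.10 (adjusted p = 0.0131, limma). Tnfaip3, the NF-κB inhibitor A20, fell by 0.75 ± 0.11, a call lost when the 72 h pair was dropped. Irf8 had 7.44 and 8.24 with αKG and 6.54 and 8.15 with DW, so the arms stood apart at 48 h and close together at 72 h. Bcl6 showed the same pattern, with 7.53 and 6.82 with αKG against 6.74 and 6.76 with DW, and neither passed.

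Other genes that fell lie outside the osteoclast lists. Myo1d, an unconventional myosin, had 6.01 and 7.53 with αKG, against 7.97 and 10.56 with DW, and fell by 2.49 ± 0.22 log2 (adjusted p = 0.00115, limma). Akap6, which anchors protein kinase A, had 4.99 and 5.69 with αKG and 7.38 and 8.27 with DW, and fell by 2.48 ± 0.33 (adjusted p = 0.00606, limma). In both genes each αKG array was below both DW arrays. Mt3, a metallothionein, had 5.41 and 7.65 with αKG and 7.31 and 9.74 with DW, and fell by 1.99 ± 0.14, or 3.98-fold (adjusted p = 0.000474, limma). Steap4, a metalloreductase that handles iron and copper, had 4.09 and 6.71 with αKG and 5.48 and 9.41 with DW, and fell by 2.05 ± 0.25. Slc9b2, a sodium and proton exchanger, had 7.80 and 9.07 with αKG and 9.63 and 11.09 with DW, and fell by 1.93 ± 0.15. For Mt3 and Steap4 the αKG level at 72 h was above the DW level at 48 h, while for Slc9b2 it stayed below. Tm4sf19, a membrane protein with 4 transmembrane segments, had 8.32 and 9.34 with αKG and 9.84 and 11.38 with DW, and fell by 1.78 ± 0.16. Slc18a1, a vesicular monoamine transporter (-1.82 ± 0.14), Ext1, which builds heparan sulfate chains (-1.60 ± 0.18), F2r, a thrombin receptor (-2.08 ± 0.37), and Pip5k1b, a lipid kinase (-2.07 ± 0.25), fell too. Cd4 had 5.34 and 8.77 with αKG and 7.44 and 10.60 with DW, and fell by 1.96 ± 0.27 (adjusted p = 0.00701, limma). Tfrc, the transferrin receptor of iron uptake, had 8.68 and 8.81 with αKG and 9.55 and 9.76 with DW, and fell by 0.91 ± 0.11 (adjusted p = 0.00512, limma).

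For Oscar, Calcr, Mt3, Steap4, Itgb3 and Cd4 the αKG level at 72 h was above the DW level at 48 h.

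Some mitochondrial energy genes fell, by small amounts. Of 28 tested genes of the TCA cycle and its pyruvate and glutamate entry 12 fell and 0 rose, with a median of -0.40. At both times 23 were below 0, against 4465 of all 15526 genes. Pdha1, the pyruvate dehydrogenase α subunit that makes acetyl-CoA for the cycle, had 8.50 and 8.46 with αKG, against 9.14 and 9.31 with DW, and fell by 0.74 ± 0.10 log2, or 1.67-fold (adjusted p = 0.00705, limma). Idh3a, of the isocitrate dehydrogenase that makes α-ketoglutarate in mitochondria, had 9.26 and 8.55 with αKG and 9.79 and 9.58 with DW, and fell by 0.78 ± 0.13 (adjusted p = 0.0125, limma). Both groups stood apart for these genes. Mdh1, malate dehydrogenase of the cytosol (-0.67 ± 0.11), Sdhb, succinate dehydrogenase (-0.59 ± 0.09), Fh1, fumarase (-0.57 ± 0.10), and Cs, citrate synthase (-0.47 ± 0.09), fell as well. Ogdh, of the complex that consumes α-ketoglutarate, stood at -0.32 and did not pass, nor did the α-ketoglutarate-forming glutamate dehydrogenase Glud1 (0.01) or Idh1, the cytosolic isocitrate dehydrogenase (0.46). With quantile normalization or robust eBayes Idh1 passed as higher. For 19 of the 28 both αKG arrays were below both DW arrays, against 14.9% of all genes.

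Of 33 oxidative phosphorylation genes 9 fell and 0 rose, with a median of -0.35. At both times 30 were below 0, against 4465 of all 15526 genes. For 25 both αKG arrays were below both DW arrays, against 14.9% of all genes. Cyc1, cytochrome c1 of complex III, had 8.37 and 8.28 with αKG, against 8.77 and 9.36 with DW, and fell by 0.74 ± 0.15 log2 (adjusted p = 0.0307, limma). Ndufv1 of complex I had 8.16 and 8.44 with αKG and 8.60 and 9.20 with DW, and fell by 0.60 ± 0.11 (adjusted p = 0.0198, limma). Atp5a1, of the ATP synthase, had 11.17 and 11.08 with αKG and 11.53 and 11.57 with DW, and fell by 0.43 ± 0.07 (adjusted p = 0.0110, limma). Each of the 3 had its αKG arrays below both DW arrays. These counts depended on single pairs, and with a late pair dropped only 1 array per arm was late. Once the 72 h pair was dropped, 2 TCA genes (Pdha1 and Sdhb) and 0 oxidative phosphorylation genes fell in limma, and with the 48 h pair dropped instead 19 and 21 did. Leaving out the 3 h or the 6 h pair gave 3 and 2 genes, leaving out the 12 h or the 24 h pair 7 and 2, and the fit without the intensity trend 5 and 2.

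A pair of glycolysis genes rose. Slc16a3, the exporter of lactate, had 8.02 and 7.41 with αKG, against 7.36 and 6.47 with DW, and rose by 0.80 ± 0.12 log2 (adjusted p = 0.00918, limma). Pkm, pyruvate kinase, had 12.24 and 11.92 with αKG and 11.92 and 11.53 with DW, and rose by 0.36 ± 0.07 (adjusted p = 0.0206, limma). These were the 2 of 16 members that passed (median 0.23), and 0 passed in limma once the 72 h pair was dropped, and Slc16a3 alone when the 3 h or the 6 h pair was. Ldhb, a lactate dehydrogenase subunit, had 4.74 and 5.25 with αKG and 5.10 and 6.68 with DW and did not pass (adjusted p = 0.0579, limma). Of 23 α-ketoglutarate-dependent dioxygenase genes 0 passed in limma in either direction (median -0.08), and Kdm5b and Kdm6b passed as lower when the 48 h pair was dropped. The histone demethylase gene Kdm6b had 6.41 and 6.13 with αKG and 6.49 and 7.32 with DW. Of 15 cholesterol synthesis genes 0 passed, and their median difference was -0.36 at 48 h and 0.27 at 72 h. Among 25 lysosomal genes 4 rose, Ctsl, the α-galactosidase Gla (0.50), the acid lipase Lipa (0.36) and the cathepsin Ctsc (0.39), and 1 fell, the hexosaminidase Hexa (-0.47), with a median of 0.06. Ctsl alone of the 4 still rose when the 3 h or the 6 h pair was dropped, Ctsl and Gla when the 12 h or the 24 h pair was, and 0 rose in limma without the intensity trend. Hexa did not pass when the 72 h pair was dropped.

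**Figure D3:**
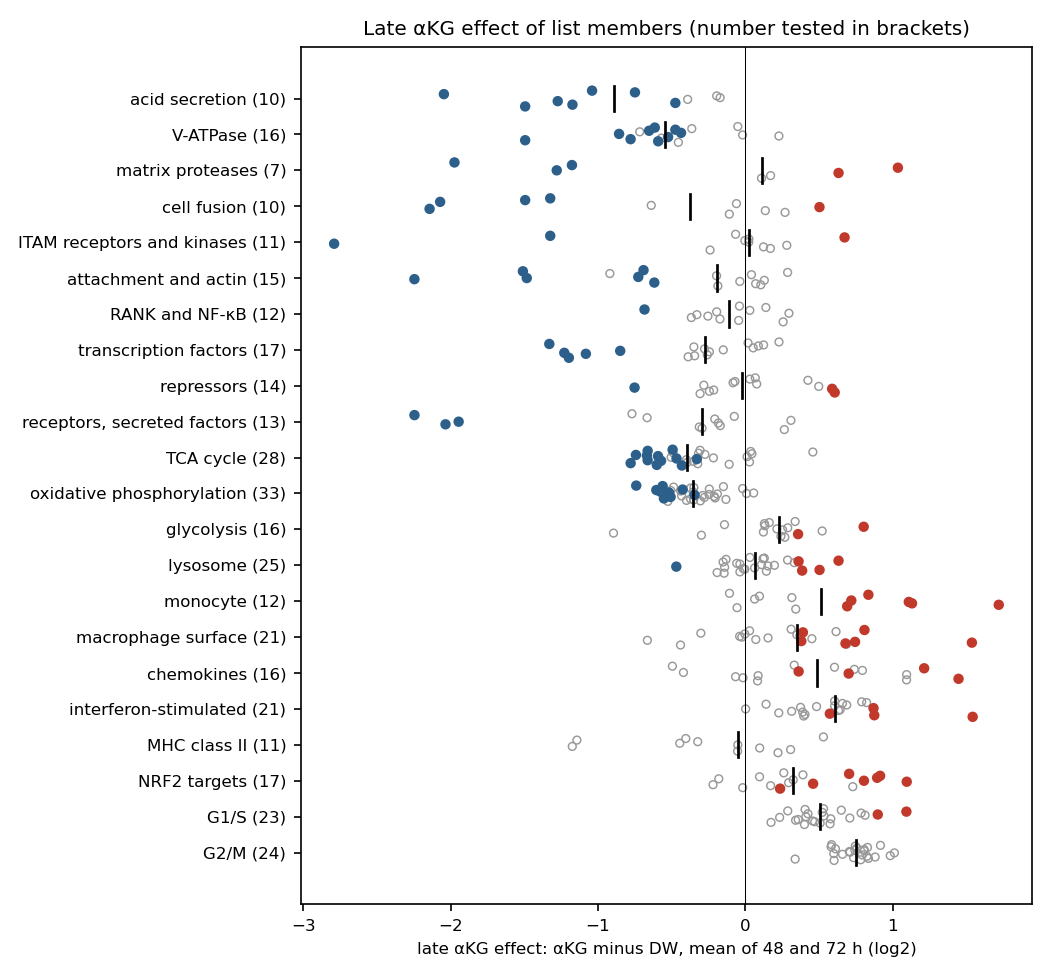
Each circle is 1 tested member of a gene list, placed by its late αKG effect (log2, mean of 48 and 72 h), filled blue or red where it passed as lower or higher and open where it did not; the bar marks the median and the bracket the number tested. Acid secretion, V-ATPase, TCA cycle and oxidative phosphorylation genes lie mostly left of 0 (medians -0.89, -0.55, -0.40 and -0.35), and monocyte, interferon-stimulated and cell cycle genes mostly right of it.

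Genes higher with αKG late included surface receptors of macrophages. Cd36, which takes up oxidised lipids, had 11.30 and 11.28 with αKG, against 9.97 and 9.53 with DW. With αKG it stayed close to the 11.66 and 11.58 of the arrays at 0 h, while it was lower in both late DW arrays. Cd36 rose by 1.54 ± 0.10 log2, or 2.90-fold (adjusted p = 0.000474, limma). Msr1, the scavenger receptor A, had 10.85 and 10.17 with αKG and 10.30 and 9.36 with DW, and rose by 0.68 ± 0.09 (adjusted p = 0.00522, limma). Siglec1, the sialic acid receptor CD169, had 10.37 and 10.83 with αKG and 9.49 and 10.22 with DW, and rose by 0.75 ± 0.14 (adjusted p = 0.0250, limma). Fcgr4, an Fc receptor (0.81), Itgam, the integrin CD11b (0.39), and Stab1, a scavenger receptor (0.38), rose too. Adgre1 (0.15), Cd68 (-0.02), Mertk (-0.04) and Mrc1 (-0.30) did not pass. Of 21 tested members 6 rose and 0 fell, with a median of 0.35. Dropping the 3 h or the 6 h pair left Cd36 and Msr1. Mrc1 passed as lower when the 72 h pair was dropped, and Clec4n and Clec7a, a pair of C-type lectins, when the 48 h pair was.

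Of 12 monocyte genes tested 6 rose and 0 fell, with a median of 0.52. Cx3cr1, the fractalkine receptor, had 7.36 and 7.03 with αKG, against 5.96 and 6.17 with DW, with no overlap, and rose by 1.13 ± 0.14 log2 (adjusted p = 0.00480, limma). Ifitm6, an interferon-induced membrane protein, had 7.62 and 8.16 with αKG and 5.58 and 6.76 with DW, and rose by 1.72 ± 0.25 (adjusted p = 0.00886, limma). Ly6c2, the marker of inflammatory monocytes, had 5.85 and 5.14 with αKG and 5.44 and 3.33 with DW, and rose by 1.11 ± 0.26 (adjusted p = 0.0498, limma). The DW value at 72 h was under the dim limit of 4.34. The Ly6c2 call was also lost with no filter, the lowest 50% left out, quantile normalization, no intensity trend or robust eBayes. F13a1, coagulation factor XIII A (0.84), Chil3, a chitinase-like protein (0.72), and Vcan, versican (0.69), rose as well. Ccr2, the receptor that brings monocytes out of the marrow, stood at 0.10 and did not pass, nor did Fn1 (0.32), S100a4 (0.34) or Hp (-0.11). Of the 6, 3 rose when the 72 h, the 3 h or the 6 h pair was dropped. Ifitm6 and Ly6c2 belong to families of similar genes and may share probe sequence with relatives.

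Other genes that rose most have varied roles. Klra2, of the Ly49 lectin family, had 7.91 and 6.05 with αKG, against 6.24 and 4.44 with DW, and rose by 1.64 ± 0.14 log2 (adjusted p = 0.000919, limma). Ceacam1, an adhesion receptor with inhibitory motifs, had 9.61 and 9.34 with αKG and 8.31 and 7.67 with DW, and rose by 1.49 ± 0.14 (adjusted p = 0.00205, limma). Ceacam1 at 0 h stood at 9.58 and 9.25, so its level changed little with αKG and was lower with DW. Rasgrp3, an activator of Ras and Rap, had 6.28 and 6.31 with αKG and 4.92 and 4.88 with DW, and rose by 1.40 ± 0.18 (adjusted p = 0.00526, limma). Its relative Rasgrp1 had 4.68 and 5.53 with αKG and 5.23 and 8.05 with DW, and fell by 1.53 ± 0.35 (adjusted p = 0.0457, limma). Spry3, of the Sprouty family of ERK pathway inhibitors, had 6.02 and 7.32 with αKG and 5.01 and 5.41 with DW, and rose by 1.46 ± 0.21 (adjusted p = 0.00737, limma). The phosphatase Dusp1 (0.60) rose and Spred1 (-0.66) fell, so 3 of 16 genes of ERK feedback and Ras activation rose and 2 fell. Neither Rasgrp1 nor Spred1 passed when the 72 h or any 1 of the 4 earlier pairs was dropped, and Dusp1 did not when the 3 h or the 6 h pair was. Fxyd2, a regulator of the sodium pump, had 7.51 and 8.44 with αKG and 5.09 and 7.18 with DW, and rose by 1.84 ± 0.24. Slc6a12, a betaine transporter, had 7.22 and 7.67 with αKG and 5.96 and 5.59 with DW, and rose by 1.67 ± 0.18. Clec5a, a DAP12-coupled lectin receptor (1.15), Hspa1b, a heat shock protein (1.29), Rnf128, a ubiquitin ligase (1.29), Rnase6, a ribonuclease of immune cells (1.28), Lipn, a lipase family member (1.33), and Radx, a protein of replication forks (1.34), also rose.

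**Figure D4:**
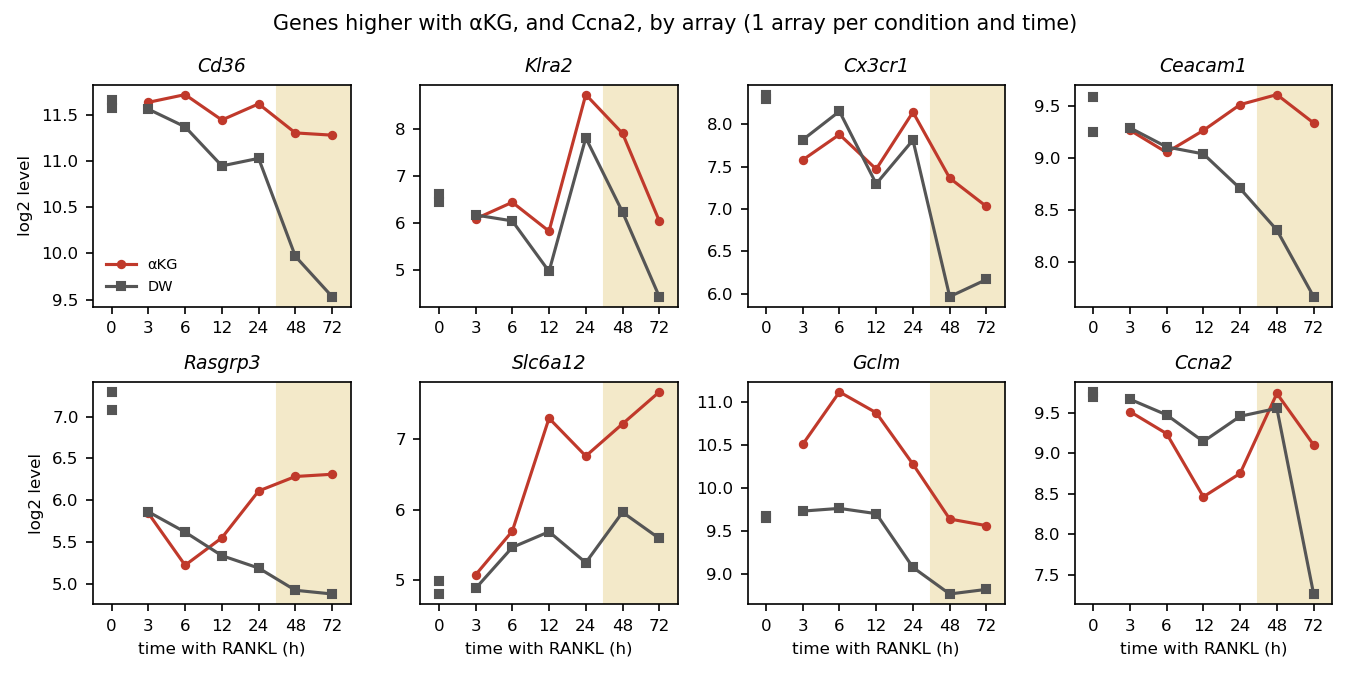
Log2 level of 7 genes higher with αKG and of Ccna2 against time with RANKL (h, evenly spaced steps), with αKG arrays in red and DW arrays in grey, 1 array per point and no error bars; grey squares at 0 h are the DW arrays without RANKL. Cd36 and Ceacam1 stay level with αKG and drop with DW, Gclm is higher with αKG at all 6 times, and Ccna2 is at 9.74 against 9.56 at 48 h and at 9.11 against 7.27 at 72 h.

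Of 21 interferon-stimulated genes tested 4 rose and 0 fell, with a median of 0.61. At both times 19 were above 0, against 4776 of all 15526 genes. For 15 of them both αKG arrays were above both DW arrays, against 14.1% of all genes. Slfn4, a Schlafen gene, had 9.49 and 8.71 with αKG, against 7.99 and 7.12 with DW, and rose by 1.54 ± 0.24 log2 (adjusted p = 0.0112, limma). Oasl2, of the oligoadenylate synthetase family, had 10.62 and 10.50 with αKG and 10.13 and 9.25 with DW, and rose by 0.87 ± 0.18 (adjusted p = 0.0307, limma). Mx1, an antiviral GTPase, had 5.57 and 5.42 with αKG and 4.42 and 4.82 with DW, and rose by 0.88 ± 0.18 (adjusted p = 0.0296, limma). Irf7, the factor that amplifies the interferon response, had 10.73 and 10.62 with αKG and 10.32 and 9.88 with DW, and rose by 0.57 ± 0.11 (adjusted p = 0.0280, limma). Stat2 (0.79, adjusted p = 0.0559, limma) and Oas2 (0.69, adjusted p = 0.0573, limma) did not pass, and Ifit3 was at 0.00. With the 72 h pair dropped 2 rose, with the 48 h pair dropped 12 rose, and with the 3 h or the 6 h pair dropped Slfn4 alone did. At 3 h the list's median difference had been -0.30, and at 24 h it was 0.40.

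Of 16 chemokine genes 4 rose and 0 fell, with a median of 0.48. Their median αKG minus DW difference was 0.66 at 48 h and 0.15 at 72 h, with 7 at least 2-fold higher at 48 h and 0 at 72 h. Ccl6 had 9.69 and 9.84 with αKG, against 7.61 and 9.02 with DW, and rose by 1.45 ± 0.24 log2 (adjusted p = 0.0132, limma). Ccl3, a ligand of Ccr1, had 10.32 and 8.75 with αKG and 8.74 and 7.90 with DW, and rose by 1.21 ± 0.25 (adjusted p = 0.0319, limma). Ccl5 had 7.21 and 7.20 with αKG and 6.47 and 6.54 with DW, and rose by 0.70 ± 0.12 (adjusted p = 0.0142, limma). Cxcl16, a scavenger and chemokine, rose by 0.36 ± 0.08. Cxcl10 had 10.57 and 8.65 with αKG and 9.33 and 8.30 with DW and did not pass (adjusted p = 0.0686, limma), and the monocyte attractant Ccl2, with 10.75 and 6.17 against 9.08 and 5.66, did not pass either (adjusted p = 0.0956, limma). Leaving out the 12 h, the 24 h or the 48 h pair left Ccl5 and Ccl6. With the 72 h pair left out 6 rose, among them Ccl2, Ccl7 and Cxcl10.

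Among targets of NRF2, the factor of the antioxidant response, 7 of 17 tested members rose and 0 fell, with a median of 0.33. At both times 12 were above 0, against 4776 of all 15526 genes. Gclm had 9.64 and 9.56 with αKG, against 8.77 and 8.82 with DW, and rose by 0.81 ± 0.12 log2 (adjusted p = 0.0106, limma). Nqo1, a quinone reductase, had 6.99 and 6.46 with αKG and 5.60 and 5.66 with DW, and rose by 1.10 ± 0.22 (adjusted p = 0.0280, limma). Hmox1, heme oxygenase 1, had 10.62 and 9.98 with αKG and 9.35 and 9.42 with DW, and rose by 0.92 ± 0.18 (adjusted p = 0.0254, limma). The αKG arrays were above both DW arrays for these 3. Ptgr1, a prostaglandin reductase (0.90), the malic enzyme Me1 (0.71), catalase Cat (0.46) and the ferritin gene Fth1 (0.24) rose too. Other targets did not pass late: Srxn1 stood at 0.29, Txnrd1 at -0.02, Gclc at 0.39 and Slc7a11 at 0.73. Dropping the 12 h or the 24 h pair left 2 of the 7, Gclm and Ptgr1. Osgin1, which encodes a growth inhibitor induced by oxidative stress, passed as lower when the 48 h pair was dropped.

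Of 24 genes of G2/M and mitosis 0 passed late in limma. Over 24 tested genes of G2/M and mitosis the median difference was 0.02 at 48 h and 1.52 at 72 h, and 23 of the 24 were at least 2-fold higher with αKG at 72 h. Ccna2, cyclin A2, had 9.74 and 9.11 with αKG, against 9.56 and 7.27 with DW, and Tpx2, a spindle assembly factor, had 8.97 and 8.26 with αKG and 8.72 and 6.54 with DW. The DW array at 72 h was the lowest of the 4 in both genes. In the mean of both times 0 of 24 passed in limma (median 0.75), with Ccna2 at an adjusted p = 0.0907. The difference at 72 h alone has no replicate. Of 23 G1/S and DNA replication genes 2 rose and 0 fell, with a median difference of 0.05 at 48 h and 1.00 at 72 h. Ccnd1, cyclin D1, had 10.61 and 7.79 with αKG and 10.06 and 6.16 with DW, and rose by 1.09 ± 0.20 log2 (adjusted p = 0.0190, limma). E2f2, a cell cycle transcription factor, had 7.05 and 6.73 with αKG and 6.20 and 5.78 with DW, and rose by 0.90 ± 0.16 (adjusted p = 0.0198, limma). The other 21 did not pass, such as Pcna, with 10.72 and 10.15 against 10.76 and 8.97. The Ccnd1 call was lost when any 1 of the 4 earlier pairs was dropped, and the E2f2 call when the 72 h pair was. At 24 h the G2/M median had been -0.62. None of the 24 G2/M genes passed as late minus early or late minus intermediate in limma, and each time has 1 array per arm.

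Of 11 genes of MHC class II and co-stimulation 0 passed in limma. H2-Ab1, a class II β chain, had 6.69 and 7.09 with αKG, against 6.89 and 9.17 with DW, and H2-Aa, a class II α chain, had 5.06 and 5.60 with αKG and 5.50 and 7.51 with DW. At 24 h H2-Ab1 stood at 9.22 with αKG and 9.55 with DW, and H2-Aa at 7.50 and 7.97. Both were low in both arms at 48 h, and of the late arrays only the DW array at 72 h was high again. Cd86, a co-stimulatory ligand, had 5.59 and 5.96 with αKG and 5.38 and 7.06 with DW. The median over 11 members was 0.13 at 48 h and -0.63 at 72 h. The smallest adjusted p in the list was 0.0512 (H2-Aa, limma). With arrays centred on their medians H2-Aa fell. With the 48 h pair dropped Cd86, Ciita, H2-Aa, H2-Ab1 and H2-Eb1 fell and Cd80 rose.

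**Figure D5:**
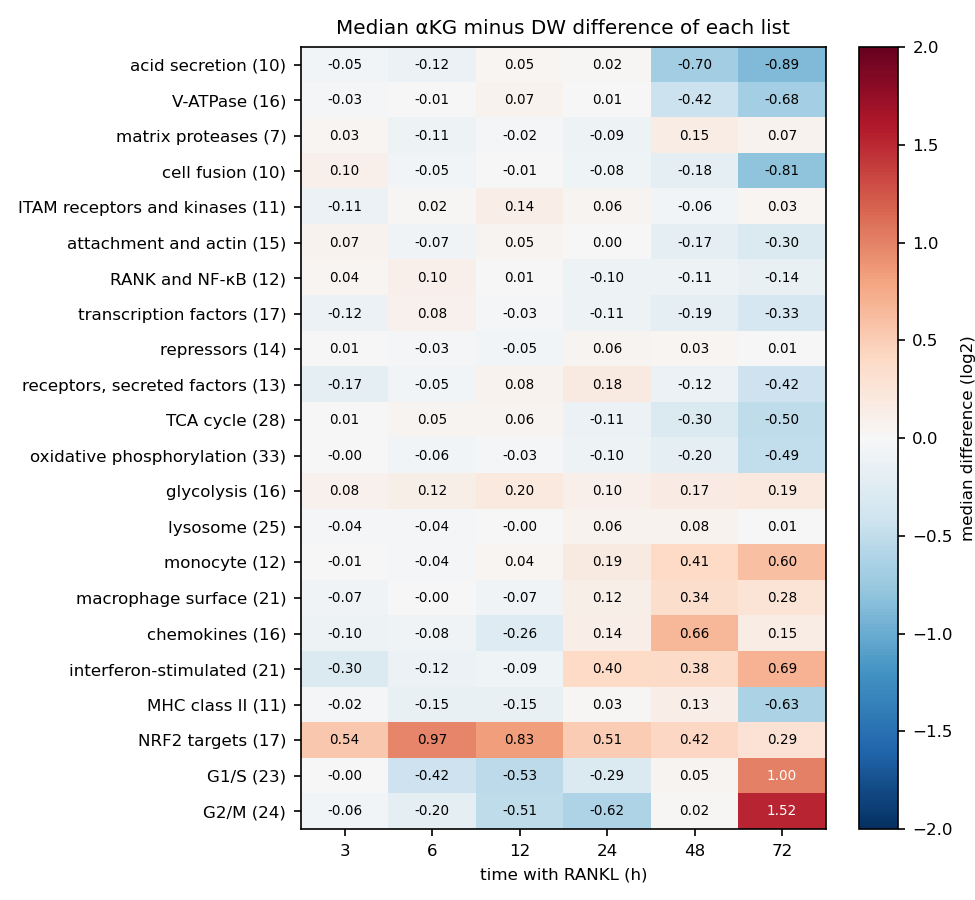
Median αKG minus DW difference (log2) over the tested members of each list (number in brackets) at 3, 6, 12, 24, 48 and 72 h, in blue where lower and red where higher with αKG. Acid secretion genes have medians of 0.02 (24 h), -0.70 (48 h) and -0.89 (72 h), NRF2 targets peak at 0.97 (6 h), and G1/S and G2/M genes are below 0 at 6 to 24 h and reach 1.00 and 1.52 at 72 h.

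The late effect was set against the earlier effects of αKG in the same fit, since they share no array. Against the effect at 3 and 6 h, 94 genes differed (0.605%), 54 higher late (0.348%) and 40 lower late (0.258%), and against the effect at 12 and 24 h 16 genes differed (0.103%), all lower late. Oscar had an early effect of 0.23 and an intermediate effect of -0.14, so its late effect was lower than the early one by 3.02 ± 0.19 log2 (adjusted p = 0.00111, limma) and lower than the intermediate one by 2.65 ± 0.19 (adjusted p = 0.00348, limma). Dcstamp differed by -2.10 ± 0.19 from early and -1.98 ± 0.19 from intermediate (adjusted p = 0.0136 and 0.0103, limma), and Ocstamp, Car2, Ccr1, Mt3, Myo1d, Ext1, Slc9b2 and Slc4a2 passed both tests in the same direction. Of the proton pump Atp6v1d and Atp6v1b2 passed both.

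Other genes had a difference between arms that did not pass as changing with time. Mmp14 had effects of -1.14 early, -1.64 intermediate and -1.97 late, and late minus early was -0.84 ± 0.23 (adjusted p = 0.137, limma). Cd4 had -1.44, -1.45 and -1.96. Gclm had 1.06, 1.19 and 0.81, with late minus early at -0.26 ± 0.18 (adjusted p = 0.564, limma). Ctsk and Acp5 lie between these patterns, with late minus early at -1.11 ± 0.26 (adjusted p = 0.0925, limma) and -1.12 ± 0.20 (adjusted p = 0.0506, limma).

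Among genes higher late than early, Cd36 differed by 1.33 ± 0.15 log2 (adjusted p = 0.0156, limma), Cx3cr1 by 1.39 ± 0.20 (adjusted p = 0.0270, limma) and Ceacam1 by 1.52 ± 0.20 (adjusted p = 0.0225, limma). Some had been lower with αKG at first. Fgr, a Src family kinase, had 5.98 (3 h) and 6.91 (6 h) with αKG, against 7.06 and 7.92 with DW. Late it had 7.77 (48 h) and 8.68 (72 h) with αKG, against 7.66 and 7.99 with DW. Ccl5 and Cxcl16 had early effects of -0.65 and -0.57 and late effects of 0.70 and 0.36. Cxcl2, a neutrophil attractant, ran the other way, with 1.68 early and 0.08 late. The 94 genes of late minus early came down to 1 when the 3 h or the 6 h pair was dropped and to 29 when the 12 h or the 24 h pair was. Dropping the 48 h pair gave 1504 and dropping the 72 h pair 142.

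Most markers of other marrow cells did not exceed 8 log2 in any of the 4 late arrays. Array medians in the series were 4.84 to 4.93, so many of these markers were not dim. Under the dim limit of 4.34 in all 4 late arrays were 2 of 14 neutrophil, 0 of 9 dendritic and 0 of 6 megakaryocyte markers. For T and NK cells this held for 4 of 11 markers, and for mast cells and basophils for 6 of 10. Of 14 neutrophil markers none exceeded 8 log2, and their mean level was 5.42 and 4.98 with αKG, against 5.13 and 4.82 with DW. Of 12 tested, Camp, an antimicrobial peptide (0.69), and Mmp8, the neutrophil collagenase (0.81), rose with αKG, 0 fell, and 0 passed in limma when the 3 h or the 6 h pair was dropped. Camp was near the dim limit of 4.34 in the late arrays, with 4.60 and 4.29 with αKG and 3.95 and 3.57 with DW. Of 11 T and NK cell markers on the array 4 were tested and Cd4 alone fell and alone exceeded 8 log2 in a late array. The mean of the 11 was 4.32 and 4.59 with αKG and 4.52 and 4.79 with DW. For B cell, dendritic, erythroid, megakaryocyte, mast cell and stromal markers 0 passed in limma in either direction, and mean levels lay between 3.62 and 6.13 log2. Of these markers Bst2 and Cd209a of dendritic cells and Pf4 of megakaryocytes exceeded 8 log2, and are named after their values were seen. The part of other cell types in the results above was not tested.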

How the data were processed

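The table deposited by the authors holds 1 value per feature and array, from 0.61 to 13.25, with array medians from 4.84 to 4.93. These deposited values were taken as log2 intensities that the authors had already normalized between arrays, judging from their range and like medians, since the labels state neither step. How the scans were read and background was corrected is not given in the sources used here. Whether a probe was above background or saturated cannot be read from the values. Precision is limited by having few arrays.

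Of 33793 features 23521 had 1 gene symbol in the platform annotation, 1814 had several and 8458 had none. The last 2 kinds were left out. Of the 23521, 23328 matched the RefSeq gene table. For the 1082 of 22180 genes with several features the feature with the highest mean value was used. Members of gene families may share probe sequence. Genes in the lowest 30% of mean value were left out, which left 15526.

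The fit used limma 3.58.1 in R 4.3.3 on the 12 arrays with a partner at 3 to 72 h, with time as the block, an αKG effect for each of the early, intermediate and late periods, and a variance trend on intensity (3 residual degrees of freedom). P-values were adjusted by Benjamini-Hochberg over all 15526 genes, and a gene rose, fell or passed where the adjusted p was under 0.05. Pairing by time was checked on deviations from each arm's mean over the matched times, in which the time course remains. Arrays of the same time correlated at 0.50 to 0.75, each above its correlation with any other time. At 6 h the values were close (0.502 against 0.484). Because both arms share the time course, this check cannot tell a pairing of arrays from that course. The no-filter, 50% filter, quantile, median-centring, trend, robust, unblocked, 4-array, mean-of-features and leave-one-out alternatives are described in the closing section.

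The comparison, its gene lists and its tests were chosen with earlier results of these data known. Genes named are the 15 highest and 15 lowest late calls with 1 sign at both times, leaving out predicted genes, clones and small RNAs, all members of 9 osteoclast lists, the 6 members with the smallest p of each other list, and the 10 highest and 10 lowest calls of late minus early and of late minus intermediate. Some of these are given as counts only, and other list members were named after their values were seen.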

Additional observations from a re-analysis of the deposited data

Results flagged for a closer look

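For 20 genes the late αKG effect differed from the effect at 3 and 6 h, and for 10 genes from the effect at 12 and 24 h, by a test of the difference itself in limma (adjusted p under 0.05). They are the extreme ones of 94 and 16 such genes. Differences are given as late minus earlier, in log2.

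Among osteoclast genes, late minus early was -3.02 for Oscar, -2.10 for Dcstamp, -1.95 for Ocstamp, -2.04 for Itgb3 and -1.89 for Ccr1. Other genes lower late than early were Myo1d (-2.70), Steap4 (-2.24), Ext1 (-1.95), Slc9b2 (-1.89) and Mt3 (-1.89). Their early effects lay near 0, between -0.21 for Itgb3 and 0.35 for Ext1.

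Genes higher late than early were Rasgrp3 (1.61), Platr25 (1.55), Ceacam1 (1.52), Klra2 (1.48), Slc6a12 (1.46), Fgr (1.44), Clec5a (1.44), Cx3cr1 (1.39), Ccl5 (1.35) and Trim30c (1.34). Of these Platr25, Fgr and Trim30c did not pass as late effects (adjusted p = 0.0571, 0.157 and 0.105, limma). Platr25, a non-coding RNA gene, had 4.60 and 4.62 at 48 and 72 h with αKG, against 4.02 and 3.83 with DW, and an early effect of -0.86. Trim30c, of the TRIM family, had an early effect of -0.81 and a late effect of 0.54.

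Late minus intermediate was -2.65 for Oscar, -2.40 for Myo1d, -2.23 for Ccr1, -2.18 for Tm4sf19, -2.16 for Ext1, -1.99 for Slc18a1, -1.98 for Dcstamp, -1.97 for Car2, -1.94 for Mt3 and -1.94 for Ocstamp. None of the 16 genes was higher late than at 12 and 24 h. Myo1d, Ccr1, Dcstamp, Ext1, Mt3, Ocstamp and Oscar appear in both comparisons. Both comparisons use the same late arrays.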

How the results depend on the processing

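The late effect passed for 663 genes. That count became 323 without the intensity trend, 60 with only the 4 late arrays and 7 with no replicate block, and it ranged from 275 to 1882 when 1 pair was dropped. Other settings gave 554 (no filter), 633 (50% filter), 666 (quantile), 675 (median-centred), 686 (robust) and 653 (mean of features). Late minus early passed for 94 genes, against 54 when arrays were centred on their medians, 17 without the trend and 0 with no replicate block, with 1 to 1504 over dropped pairs. Late minus intermediate passed for 16 genes, against 6 without the trend and 0 with no replicate block, with 0 to 1131 over dropped pairs. Neither of these 2 contrasts could be made with only the 4 late arrays. With a late pair dropped, the late effect rests on 1 array per arm. The causes were not tested. The zero counts are limma's after adjustment.

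Of the 120 named genes that passed late, none changed direction under a setting in which it was tested. For most settings this outcome was fixed beforehand. The filter, trend, robust, unblocked, 4-array and earlier-pair settings leave a gene's late effect itself unchanged. Dropping the 48 h or the 72 h pair leaves the other difference, and these genes had the same sign at both times. Only quantile normalization, median-centring and the mean of features could have changed a direction. The 50% filter left 9 of the 120 named genes untested: Akap6, Calcr, Camp, Cd200, Oscar, Pip5k1b, Rasgrp1, Slc18a1 and Steap4. Of the other 111, 2 lost their call there. Calls were lost for 118 with no replicate block, 86 with 4 arrays, 44 without the trend, 10 with no filter, 8 with median-centring, 5 with quantile normalization, 3 with robust eBayes and 2 with the mean of features. Dropping a pair lost 44 (3 or 6 h), 29 (12 or 24 h), 9 (48 h) or 39 (72 h). Genes named in the text that passed only with all of the 3, 6, 12, 24 and 72 h pairs were Chil3, Cs, Cttn, Cyc1, Ly6c2, Me1, Ndufv1, Pxn, Radx, Rasgrp1, Siglec15, Spred1, Tcirg1, Traf6 and Cxcl16, the last of which needed the 48 h pair too.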
